A study of Mus musculus with 2 samples.

Results

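The genes described here are the mouse collagen chains, the laminin chains, the nidogens Nid1 and Nid2, perlecan (Hspg2), osteonectin (Sparc) and fibronectin (Fn1). They were taken by symbol among protein-coding genes, and the rule used no measured value. It gave 60 genes of which 43 had at least 1 read, among 15523 genes with a read in the series. These 60 fell into 22 basement membrane genes, 11 fibrillar collagen genes, 6 type VI collagen genes and 21 others.

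Interscapular brown adipose tissue, the fat of the upper back that burns lipid for warmth, was profiled by reading its native poly(A)+ RNA on a nanopore in 2 libraries. The cold library came from male wild-type C57BL/6N mice of 20 weeks, kept 1 to a cage at 4 °C for 24 h, and it pooled the RNA of 3 animals. The control library carries the label ctrl and the same strain and tissue. Growth conditions for both are given as 22 to 24 °C, but the treatment text attached to both libraries describes the cold. That text gives 20 weeks and male sex for each. The sources used here give neither the number nor the housing of the control mice. The extraction text names epididymal white fat although the tissue label is brown fat. Ucp1, the uncoupling protein that marks brown adipocytes, had 14526 reads in the cold library and 14860 in the control library, so both held abundant brown fat RNA. Each condition is 1 library, so no difference between conditions has a replicate check, and no p-value is given.

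The cold library held 1215617 reads and the control library 1698124. Ratios of cold to control were formed after scaling both libraries with edgeR TMM factors, and each is given with a 95% interval that covers counting error only. A gene with at least 20 reads over both libraries was called higher or lower when it was at least 1.5-fold apart and its interval left out a ratio of 1. Over all 7515 genes with at least 20 reads, 8.05% were called higher and 7.43% lower. Marker lists of other cell types were not level between the libraries. Skeletal muscle markers summed to 1975 reads in cold and 636 in control, a ratio of 3.83 (3.50 to 4.19), and 9 of 10 were called higher. Endothelial markers had 877 reads in cold and 855 in control, a ratio of 1.26 (1.15 to 1.39), with 3 of 12 called higher. Fibroblast markers had 324 in cold and 332 in control, a ratio of 1.20 (1.03 to 1.41), with none of 5 called. The markers of mural and smooth muscle cells had 369 in cold and 411 in control, at 1.11 (0.959 to 1.28), with 2 of 8 called higher. Macrophage markers stood at 1.56 (1.18 to 2.07), with 2 of 3 called higher, and Schwann cell markers at 0.857 (0.670 to 1.09), with none of 3 called. Adipocyte markers stood at 1.22 (1.21 to 1.24), but 1 of 7 was called lower and none higher. Single adipocyte markers had log2 ratios from −0.61 to 0.47. No marker was at 0 in both libraries. In bulk tissue, fewer cells of a type and less RNA per cell cannot be told apart.

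Basement membranes are thin sheets of matrix that surround each adipocyte, line the capillaries and wrap muscle fibres and nerves. Laminin trimers, each of an alpha, a beta and a gamma chain, and networks of type IV collagen form separate meshes that nidogens and perlecan join. Fibrillar collagens of types I, III and V make the tensile fibres between cells, and type VI collagen forms beaded filaments next to the basement membrane, where it is known in adipose tissue as a restraint on fat cell expansion.

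Among the collagens, laminins and their partners, the genes of the type IV collagen network were the ones that stood higher in cold with many reads. Type IV collagen reads amounted to 760 in cold and 503 in control, a ratio of 1.86 (1.66 to 2.09). The type VI collagens together had 54 reads in cold and 116 in control, 1.74-fold lower (1.25 to 2.45). Within them Col6a1 and Col6a2, a pair picked after the values were seen, had 30 reads in cold and 89 in control. This pair was 2.41-fold lower (1.57 to 3.77), whereas Col6a3 had 24 reads in cold and 26 in control and was not lower. The fibrillar collagens together had 206 reads in cold and 305 in control, 1.20-fold lower (1.00 to 1.44).

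Of the 60 genes, 24 passed the minimum of 20 reads, 19 had 1 to 19 reads and 17 were not listed in either library. Col4a1, Col4a2 and Lamb3 were called higher, 3 of 24, beside 8.05% of the 7515 genes at that depth. Lama4, Col6a1 and Col6a2 were called lower, again 3 of 24, beside 7.43% of all genes. At a threshold of 2-fold, Lamb3 alone was higher, beside 4.18% of all genes. Col6a1 and Col6a2 were lower at that threshold, beside 4.07% of all genes. Counts of 3 genes or fewer are too small to set these genes apart from the background. The median log2 ratio of the 24 genes was −0.24, with 9 above 0 and 15 below, beside 0.00 over all genes with 20 reads.

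**Figure D1:**
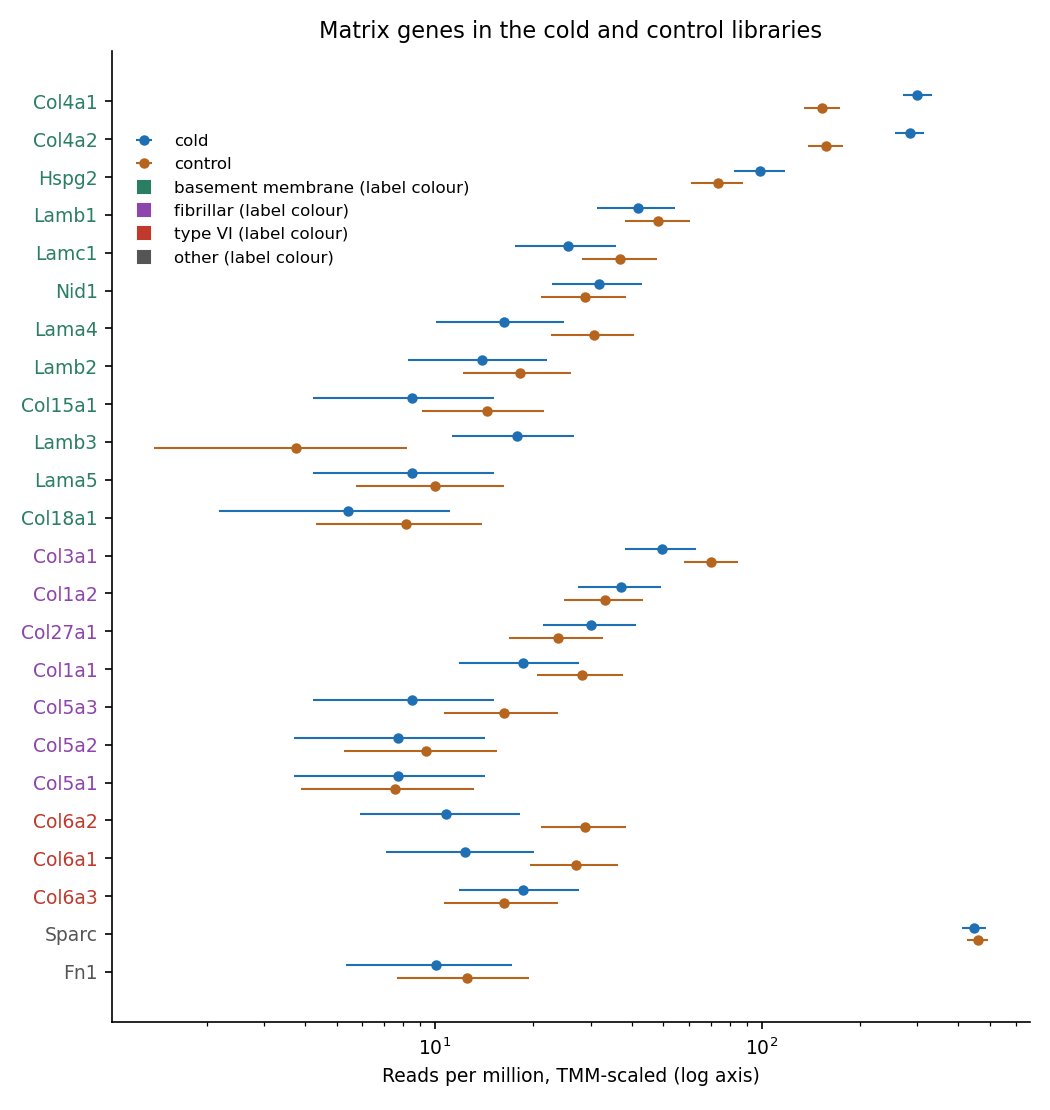
RPM after scaling (log axis) of the 24 genes with at least 20 reads, with the cold library in blue and the control library in orange; lines are 95% Poisson intervals and the label colour gives the role. Col4a1 and Col4a2 have cold intervals wholly above the control ones, at 299.9 and 284 RPM in cold against 153.6 and 157 RPM in control.

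Col4a1 and Col4a2 encode the alpha 1 and alpha 2 chains of the main type IV collagen trimer, which holds them at a fixed proportion. Col4a1 had 388 reads in cold and 245 in control, 1.95-fold higher in cold (1.66 to 2.30). Col4a2 had 368 reads in cold and 251 in control, 1.81-fold higher (1.54 to 2.13). Both chains thus stood higher by a similar factor, and the number of Col4a1 reads per Col4a2 read was 1.05 in cold and 0.976 in control, a ratio of 1.08 (0.856 to 1.36). The chains of the other type IV trimers had few reads. Col4a5 had 2 reads in cold and 7 in control, Col4a4 had 2 in cold and none listed in control, and Col4a3 and Col4a6 were not listed.

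The 2 type IV genes lie head to head on chromosome 8 of GRCm38, Col4a1 on the minus strand at chr8:11198423-11312826 and Col4a2 on the plus strand at chr8:11312805-11449287. Their annotated first exons overlap by 22 bases, so the annotated starts of both fall in the same short stretch. It is shown here because the pair stood higher together, as plus-strand RefSeq sequence of GRCm38.p6. The first line covers both annotated starts, chr8:11312801-11312830, with a GC box (GGGCGG, searched on both strands) in capitals. The second covers chr8:11312781-11312810, which overlaps the first line, with a CTC box (CCCTCCCC, both strands) in capitals.
Col4a1 and Col4a2 shared start: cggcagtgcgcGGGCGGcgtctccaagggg
Col4a1 and Col4a2 CTC box: ttggcgctgccCCCTCCCCtcggcagtgcg
The second line was placed on its box, so no rate for stretches of that length is set beside it. Over the 32851 annotated promoter windows in full, a GC box was found in 28 of the 47 windows that RefSeq gives for 43 of the 60 genes and in 35.7% of all windows, and a CTC box in 13 of 47 and in 10.8%. These are matches of letters, and neighbouring windows share sequence.

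Type IV reads were also set against the markers of 4 of the cell types, a comparison that does not depend on scaling between libraries. Per endothelial marker read there were 0.867 type IV reads in cold and 0.588 in control, a ratio of 1.47 (1.27 to 1.71). The same ratio was 1.55 (1.27 to 1.88) against fibroblast markers, 1.68 (1.40 to 2.02) against mural markers and 1.52 (1.36 to 1.71) against adipocyte markers. The type IV ratio lay above the summed ratio of each of these 4 lists, whose members differ. Single endothelial markers, for example, had log2 ratios from −0.65 to 0.64. The interval of the macrophage markers (1.18 to 2.07) overlaps that of type IV collagen (1.66 to 2.09). A part of cell composition in the type IV difference was not tested. Skeletal muscle markers, which were not among these 4 lists, differed more, at 3.83 (3.50 to 4.19) beside 1.86 for type IV collagen. Per muscle marker read there were thus fewer type IV reads in cold. The part of muscle RNA in the type IV reads was not tested. Lama2, the laminin alpha chain of muscle fibres, had 5 reads in cold and 3 in control, too few to read (0.400 to 13.2).

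The laminin chains did not follow type IV collagen. The laminins together had 169 reads in cold and 243 in control, 1.17-fold lower (0.954 to 1.43). Type IV reads per laminin read were 4.50 in cold and 2.07 in control, a ratio of 2.17 (1.72 to 2.74). Of 6 laminin chains with at least 20 reads, 1 was called higher, beside 8.05% of all genes, and 1 lower, beside 7.43%. The median log2 ratio of these chains was −0.29. All 5 chains other than Lamb3 lay below 0, between −0.90 and −0.21.

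Lama4, the laminin alpha chain of adipocytes and vessel walls, had 21 reads in cold and 49 in control. It was 1.89-fold lower in cold (1.11 to 3.32). With total counts in place of TMM scaling, it was no longer called. Lamb1 and Lamc1 encode its usual partners, and their intervals overlap that of Lama4. Lamb1 had 54 reads in cold and 77 in control, 1.16-fold lower (0.806 to 1.67). Lamc1, the gamma chain of most laminins, had 33 reads in cold and 59 in control, 1.45-fold lower (0.931 to 2.29). Together the 3 chains had 108 reads in cold and 185 in control, 1.39-fold lower (1.09 to 1.78). Only TMM scaling was used for this sum.

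Lama5, the other main alpha chain of vessels, had 11 reads in cold and 16 in control. Lamb2, a beta chain of vessel and muscle laminins, had 18 in cold and 29 in control. Both intervals reached across 1. Lama4 reads per Lama5 read were 1.91 in cold and 3.06 in control, a ratio of 0.623 (0.227 to 1.76), so a difference between these alpha chains was not detectable at this depth. Lamc3 had 4 reads in each library, and Lama1 and Lama3 were not listed.

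Lamb3 encodes the beta chain of the epithelial laminin that anchors skin. Lamb3 had 23 reads in cold and 6 in control, 4.73-fold higher in cold (1.87 to 14.2), on few reads. The excess was assigned to the shorter annotated forms. Transcripts Lamb3-201 and Lamb3-202 had 8 reads each in cold and none listed in control, whereas Lamb3-209 had 7 reads in cold and 6 in control. Lamb3-209 made up 30.4% of the gene's reads in cold (13.2 to 52.9) and all 6 of its reads in control. From Lamb3-209 alone the log2 ratio was 0.51 in place of 2.16, and the gene was not called.

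Lamb3-209 is annotated to start 94268 bases before Lamb3-201, at chr1:193207725 on the plus strand, and the 3 forms end within a few bases of each other. Reads that stop short of the 5′ end can match more than one of them, so the split among them is uncertain. Hsd11b1 (60 reads in cold and 192 in control) and G0s2 (479 in cold and 655 in control) lie on the opposite strand within the locus, and the sources used here do not say how strand was used in counting. The stretch before the start of Lamb3-201, chr1:193301744-193301992 on the plus strand of GRCm38.p6 in RefSeq, is shown because all cold reads beyond Lamb3-209 were given to the transcripts that begin next to it. Capitals mark 3 E-boxes (CANNTG, which reads the same on both strands).
Lamb3 upstream: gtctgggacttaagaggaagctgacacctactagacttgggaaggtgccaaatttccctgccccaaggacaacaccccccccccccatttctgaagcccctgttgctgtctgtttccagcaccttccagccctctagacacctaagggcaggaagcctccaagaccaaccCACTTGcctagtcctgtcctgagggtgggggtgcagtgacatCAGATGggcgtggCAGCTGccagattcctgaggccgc
An E-box was found in 66.1% of stretches of that length taken directly before RefSeq starts, so its presence is common. No GC box and no CTC box was found in these letters.

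None of the linkers of the basement membrane was called, beside 8.05% of all genes called higher and 7.43% lower. Hspg2, the heparan sulfate proteoglycan perlecan, had 128 reads in cold and 117 in control, 1.35-fold higher (1.04 to 1.75), which is short of the 1.5-fold threshold. Nid1, the nidogen that ties laminin to type IV collagen, had 41 reads in cold and 46 in control, a ratio of 1.10 (0.704 to 1.71). Nid2 had 6 in cold and 11 in control.
Col15a1 and Col18a1, collagens with heparan or chondroitin sulfate chains that sit at the outer face of the basement membrane, had 18 reads together in cold and 36 in control. They were 1.62-fold lower, with an interval across 1 (0.897 to 3.03). Col15a1 had 11 reads in cold and 23 in control, and Col18a1, the source of endostatin, had 7 in cold and 13 in control.

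Over all 17 listed basement membrane genes, reads summed to 1122 in cold and 956 in control, 1.45-fold higher (1.33 to 1.58). This sum was carried by Col4a1 and Col4a2. Without the type IV collagens, the sum was 362 reads in cold and 453 in control, 1.01-fold lower (0.882 to 1.17). Gene by gene, 3 of 12 basement membrane genes were called higher, beside 8.05% of all genes, and 1 lower, beside 7.43%. Counts this small do not set them apart from the background. The median log2 ratio of the 12 was −0.21, and 7 of 12 lay below 0. The sum and the median thus point in opposite directions. The median without Col4a1, Col4a2 and Lamb3, a trimming chosen after their values were seen, was −0.37 over 9 genes.

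**Figure D2:**
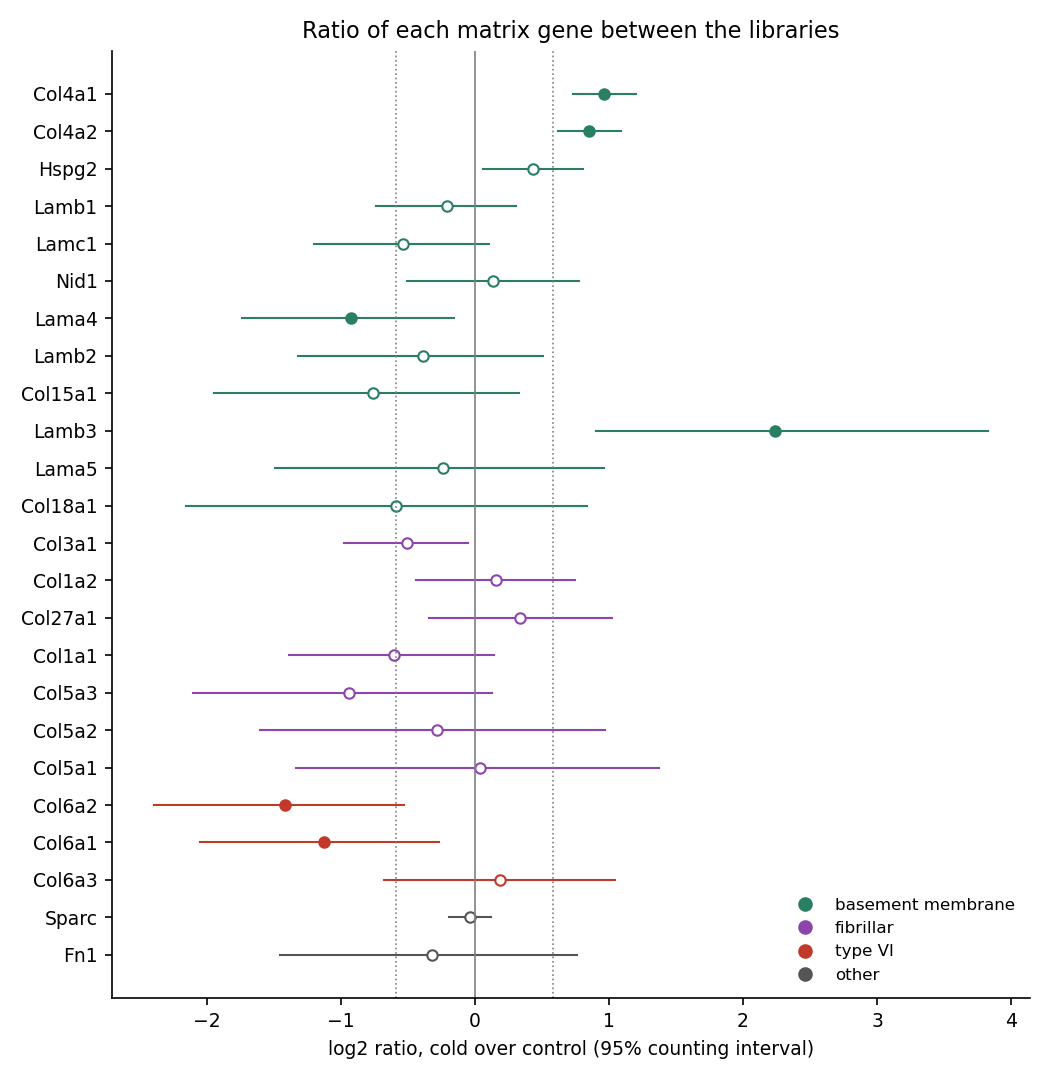
Log2 ratio of cold over control for the 24 genes with at least 20 reads, with 95% counting intervals, coloured by role. Col4a1 (0.96) and Col4a2 (0.85) have short intervals to the right of 0, Lamb3 (2.16) a wide one, and Col6a1 (−1.10), Col6a2 (−1.38) and Lama4 (−0.90) lie to the left of 0.

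No fibrillar collagen was called in either direction among the 7 with at least 20 reads. Beside 8.05% of all genes called higher and 7.43% lower, 7 genes are too few to read anything from this. The median log2 ratio of the 7 was −0.26. Col3a1, the chain of type III collagen, had 64 reads in cold and 112 in control, 1.42-fold lower (1.03 to 1.96), under the fold threshold. Under TMM scaling its interval was the only one of the 7 that left out 1. With total counts the interval of Col3a1 spanned 1, at log2 ratios from −0.79 to 0.13. It also did so without mitochondrially encoded genes (−0.84 to 0.08). Type I collagen is a trimer with 2 alpha 1 chains for each alpha 2 chain. Col1a1 had 24 reads in cold and 45 in control, 1.52-fold lower (0.907 to 2.61). Col1a2 had 48 reads in cold and 53 in control, a ratio of 1.12 (0.740 to 1.68). Col1a1 reads per Col1a2 read were 0.5 in cold and 0.849 in control, a ratio of 0.589 (0.297 to 1.16), which does not separate the chains at this depth.

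Type V collagen sits in the core of type I fibres and limits their width. Its 3 chains had 31 reads together in cold and 53 in control, 1.39-fold lower (0.874 to 2.23). Col5a3 had 11 reads in cold and 26 in control, Col5a2 had 10 in cold and 15 in control, and Col5a1 had 10 in cold and 12 in control. Each interval spanned 1. Col27a1, a fibrillar collagen best known from cartilage, had 39 reads in cold and 38 in control, a ratio of 1.27 (0.789 to 2.03). Col11a2 had no read listed in cold and 4 in control, and Col2a1, Col11a1 and Col24a1 were not listed. Types I, III and V together had 167 reads in cold and 263 in control, 1.28-fold lower (1.05 to 1.56). That sum too was formed under TMM scaling alone.

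The type VI collagens gave the lowest values. Col6a1, Col6a2 and Col6a3 encode the alpha 1, alpha 2 and alpha 3 chains that assemble in equal number. Col6a1 had 16 reads in cold and 43 in control, 2.18-fold lower in cold (1.20 to 4.14). Col6a2 had 14 reads in cold and 46 in control, 2.66-fold lower (1.44 to 5.25). Col6a3, the chain that releases endotrophin, had 24 reads in cold and 26 in control and was not lower, at a ratio of 1.14 (0.626 to 2.06). Reads of Col6a1 and Col6a2 per Col6a3 read, a grouping chosen after the values were seen, were 1.25 in cold and 3.42 in control, a ratio of 0.365 (0.173 to 0.776). Because the grouping came from the same values, this ratio is a description. Col6a6 had 1 read, in control, and Col6a4 and Col6a5 were not listed.

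Col6a1 and Col6a2, picked as a pair after their values were seen, were also set against 4 of the marker lists. Against fibroblast markers the ratio of cold to control was 0.345 (0.214 to 0.545), against endothelial markers 0.329 (0.208 to 0.508), against mural markers 0.375 (0.234 to 0.590) and against adipocyte markers 0.340 (0.217 to 0.520). All 4 values lay below 1 for this pair. With Col6a3 and Col6a6 included, type VI reads summed to 54 in cold and 116 in control, 1.74-fold lower (1.25 to 2.45).

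Col6a1 and Col6a2 are neighbours on chromosome 10, both on the minus strand, at chr10:76708792-76726168 and chr10:76595762-76623630, with 85161 bases between them. Col6a3 lies on chromosome 1, at chr1:90765923-90843971. The stretches before the annotated starts of the neighbouring pair are given as minus-strand RefSeq sequence of GRCm38.p6, at chr10:76726169-76726294 for Col6a1 and chr10:76623631-76623880 for Col6a2. They are shown because these chains were lower together and Col6a3 was not. Capitals mark GC boxes and CTC boxes on either strand.
Col6a1 upstream: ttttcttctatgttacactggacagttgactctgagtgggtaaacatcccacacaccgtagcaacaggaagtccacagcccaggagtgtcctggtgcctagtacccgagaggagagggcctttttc
Col6a2 upstream: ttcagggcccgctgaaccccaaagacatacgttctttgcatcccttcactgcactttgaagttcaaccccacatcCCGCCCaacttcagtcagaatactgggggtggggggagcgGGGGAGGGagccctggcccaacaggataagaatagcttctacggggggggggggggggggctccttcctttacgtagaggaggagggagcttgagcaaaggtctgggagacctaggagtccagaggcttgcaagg
The Col6a2 stretch held 1 GC box and 1 CTC box. The Col6a1 stretch held neither in these 126 bases, although the RefSeq window of Col6a1 held a CTC box outside them. In the 126 bases directly before each RefSeq start, 27.0% of all promoter windows held a GC box and 6.23% a CTC box. The Col6a1 stretch lies further from the RefSeq start of its window, so these rates are for another position. In the 250 bases directly before that start, 32.7% of windows held a GC box and 9.69% a CTC box.

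Among the remaining genes, Sparc, a collagen-binding protein that assists the handling of type IV and fibrillar collagen, had 579 reads in cold and 732 in control, a ratio of 0.975 (0.873 to 1.09). With this many reads the interval leaves out a difference of 1.5-fold in either direction. Type IV reads per Sparc read were 1.31 in cold and 0.687 in control, a ratio of 1.91 (1.63 to 2.24). Fn1, fibronectin, had 13 reads in cold and 20 in control, 1.25-fold lower (0.591 to 2.73).
The other 12 listed collagens had 19 reads or fewer. Col12a1 had 8 reads in cold and 11 in control, and Col13a1, a membrane-bound collagen, had 7 in cold and 2 in control. Col8a1 had 4 and Col14a1 had 2 in each library. Col22a1 had 1 read, in cold. Col23a1 had 3, Col16a1 and Col20a1 had 2 each, and Col10a1, Col28a1, Col7a1 and Col9a3 had 1 each, all in control. No direction can be read from these counts. Col8a2, Col9a1, Col9a2, Col17a1, Col19a1, Col25a1 and Col26a1 were not listed.

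The comparison of basement membrane with fibrillar and type VI collagen can be made within each library, without scaling. There were 4.32 basement membrane reads per fibrillar or type VI read in cold and 2.27 in control, a ratio of 1.90 (1.59 to 2.28). With type IV collagen alone as the numerator, the values were 2.92 in cold and 1.19 in control, a ratio of 2.45 (2.01 to 2.98). With type IV left out, they were 1.39 in cold and 1.08 in control, a ratio of 1.29 (1.05 to 1.60). All 3 ratios lay above 1, and the ratio was smallest without type IV collagen. In that form the basement membrane sum itself was level, at 0.985 (0.856 to 1.13). The fibrillar and type VI sum below it was 1.31-fold lower (1.12 to 1.54). Both sums were formed under TMM scaling alone. Gene by gene, the median log2 ratios were −0.21 for basement membrane, −0.26 for fibrillar and −1.10 for type VI genes. A shift of the basement membrane genes as a class is therefore not shown. Type VI reads per fibrillar read were 0.262 in cold and 0.380 in control, a ratio of 0.689 (0.467 to 1.01). As a share of all reads, the 43 listed genes held 0.164% in cold and 0.127% in control, 1.14-fold higher after scaling (1.07 to 1.21). Type IV collagen made up 760 of these reads in cold and 503 in control. The median log2 ratio of the 24 genes with at least 20 reads was −0.24, with 9 above 0 and 15 below. The sum therefore does not show a rise of these genes as a class.

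**Figure D3:**
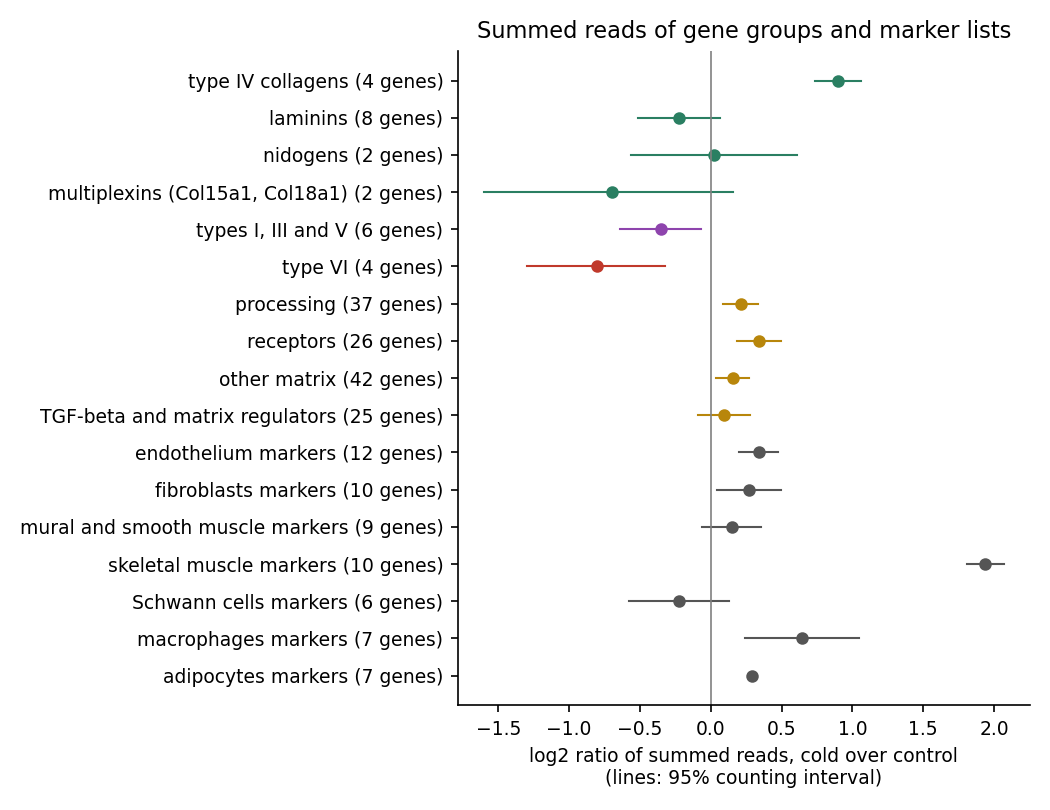
Log2 ratio of summed reads, cold over control, for groups of matrix genes (green, basement membrane; purple, fibrillar; red, type VI), for related gene lists (ochre) and for cell type markers (grey), with 95% counting intervals. Type IV collagen lies to the right of every marker list apart from skeletal muscle, with an interval that overlaps that of macrophages. Type VI collagen lies furthest to the left.

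The authors' counts are given per annotated transcript. Shares of these counts were compared for the 4 genes that had 100 or more reads in cold and 100 or more in control. Col4a1 was split between Col4a1-201, which is protein coding, and Col4a1-208, which is annotated as a target of nonsense-mediated decay. Col4a1-208 made up 52.6% of Col4a1 reads in cold and 51.4% in control, a difference of 1.15 percentage points (−6.79 to 9.09). The higher Col4a1 level was thus shared by both annotated forms, with 181 reads of Col4a1-201 in cold and 117 in control, and 204 of Col4a1-208 in cold and 126 in control.
Hspg2-201 made up 53.9% of Hspg2 reads in cold and 65.0% in control, a difference of −11.05 points with an interval across 0 (−22.8 to 1.25). Sparc-201 made up 66.0% of Sparc reads in cold and 64.2% in control, a difference of 1.77 points (−3.44 to 6.92). No transcript share of these genes differed beyond counting error. Transcripts that share a 3′ end are hard to separate from reads that begin there, and the split of each gene carries that limit.

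**Figure D4:**
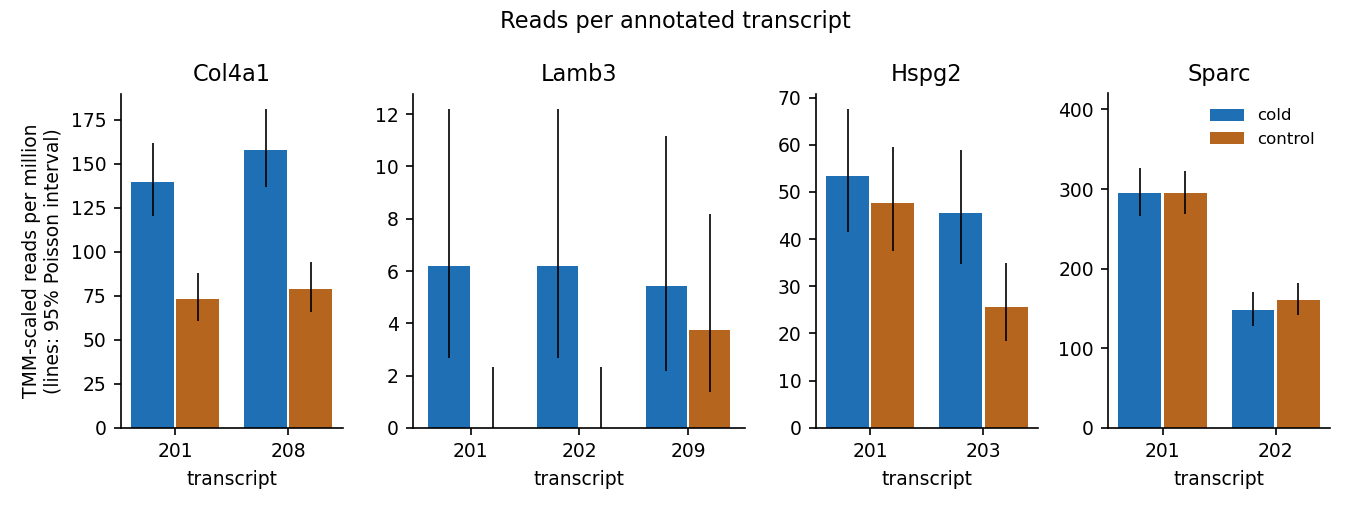
Scaled RPM of the main annotated transcripts of Col4a1, Lamb3, Hspg2 and Sparc, with the cold library in blue on the left of each pair and the control library in orange on the right; lines are 95% Poisson intervals. Both Col4a1 forms are higher in cold, Lamb3-201 and Lamb3-202 have reads in cold alone, and both Sparc forms are close between the libraries.

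Genes that act on these proteins were described from lists of the pathway. Of 41 genes that fold, modify, cross-link or cleave collagen, 18 had at least 20 reads, of which 1 was called higher and none lower, beside the same shares of 8.05% and 7.43% of all genes (median log2 ratio 0.14). Timp4, a metalloproteinase inhibitor, had 57 reads in cold and 36 in control, 1.95-fold higher (1.26 to 3.05). P4ha1, a collagen prolyl hydroxylase, had 18 in cold and 13 in control. Lox, the lysyl oxidase that cross-links fibrillar collagen, had 11 in cold and 26 in control, 1.92-fold lower with an interval across 1 (0.915 to 4.30), and Mia3, which loads procollagen for export, had 22 in cold and 43 in control.
Serpinh1 and Pxdn were named after their values were seen. Serpinh1, the collagen chaperone HSP47, had 294 reads in cold and 260 in control, 1.39-fold higher (1.18 to 1.65), and Pxdn, which cross-links type IV collagen, had 26 in cold and 19 in control, a ratio of 1.69 (0.898 to 3.23). Neither was called.

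Of 29 matrix receptor genes, 12 had at least 20 reads, 1 was called higher, beside 8.05%, and none lower, beside 7.43% (median log2 ratio 0.31). Sdc4, the heparan sulfate receptor syndecan-4, had 95 reads in cold and 36 in control, 3.25-fold higher (2.20 to 4.92). Sgcd, a sarcoglycan of the muscle dystrophin complex, had 17 in cold and 11 in control. The lowest values were close to level, at log2 ratios of −0.05 for Cd47 and −0.04 for Bcam, a laminin receptor. Of the 12 receptors, 9 lay above 0, beside 3761 of 7515 over all genes, and 5 of 6 laminin chains lay below. The intervals of 11 of 12 receptors and 4 of 6 laminin chains spanned 1, so no contrast is read from these signs.

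Of 48 other matrix genes, 21 had at least 20 reads, 2 were called higher, beside 8.05% of all genes, and 3 lower, beside 7.43%, so the counts are near the background (median log2 ratio 0.12). Tinagl1, a basement membrane protein of vessel and smooth muscle matrix, had 171 reads in cold and 82 in control, 2.57-fold higher (1.97 to 3.39). Eln, elastin, had 28 reads in cold and 12 in control, 2.88-fold higher (1.42 to 6.21). Among relatives of Sparc the direction was opposite. Smoc1 had 24 reads in cold and 66 in control, 2.23-fold lower (1.38 to 3.72), and Smoc2 had 6 in cold and 26 in control, 3.51-fold lower (1.42 to 10.4). Sparcl1, the third called lower, had 50 reads in cold and 101 in control, 1.64-fold lower (1.16 to 2.35).

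Of 25 genes of transforming growth factor beta signalling and matrix regulation, 14 had at least 20 reads, 2 were called higher, beside 8.05% of all genes, and 3 lower, beside 7.43% (median log2 ratio 0.39). Smad3, a signal carrier of that pathway, had 47 reads in cold and 12 in control, 4.83-fold higher with a lower bound of 2.52. Pdgfb, the growth factor by which endothelium recruits pericytes, had 63 in cold and 44 in control, 1.77-fold higher (1.18 to 2.66). Tgfbr2, the ligand-binding receptor, had 30 in cold and 91 in control, 2.46-fold lower (1.61 to 3.85). Wwtr1, the Hippo pathway factor TAZ, had 20 in cold and 60 in control, 2.43-fold lower (1.45 to 4.26), and Smad2 had 14 in cold and 35 in control, 2.03-fold lower (1.06 to 4.08). The called genes of this list lay on both sides, and nothing particular to the list is read from so few.

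MicroRNAs of the miR-29 family are known to target collagen messages in several tissues. They were not measured here, since the libraries hold poly(A)+ RNA, and only their possible sites can be described. The mature forms from RefSeq (GRCm38.p6) are shown with the seed, bases 2 to 8, in capitals; all share AGCACCA.
mmu-miR-29a-3p: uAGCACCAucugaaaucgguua
mmu-miR-29b-3p: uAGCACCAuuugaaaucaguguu
mmu-miR-29c-3p: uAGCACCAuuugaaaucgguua
The complement of the seed, TGGTGCT, was searched on the message strand of the 3′ untranslated region of the most abundant coding transcript. It was found in 12 of the 24 genes (50%) and in 14.6% of 7314 genes with at least 20 reads and such a region. Among regions of 500 to 2000 bases, it was found in 9 of 15 of these genes and in 11.7% of 3239 genes. By role, matches were present in 4 of 12 basement membrane genes, 6 of 7 fibrillar genes and 2 of 3 type VI genes. Target stretches of 22 bases are given in message orientation for both type IV genes and for 1 gene each of the fibrillar and laminin groups, with the match in capitals.
Col4a1 site: accgtcacaacaTGGTGCTact
Col4a2 site: ggaaggccacgtTGGTGCTtat
Col3a1 site: aaaatgtctcaaTGGTGCTata
Lamc1 site: tatctgacacacTGGTGCTatt
Col4a2 held 2 matches, of which 1 is shown. The matches shown begin at base 33 of 1378 in Col4a1, 43 of 971 in Col4a2, 235 of 959 in Col3a1 and 1398 of 2551 in Lamc1. Genes with a match lay on both sides, with log2 ratios of 0.96 for Col4a1, 0.85 for Col4a2, −0.50 for Col3a1, −0.53 for Lamc1 and −1.38 for Col6a2. Col6a1, also lower, had no match in its region of 767 bases.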

How the data were processed

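The authors deposited raw read counts for each Ensembl transcript, as whole numbers with no normalization. Per the labels, 500 ng of poly(A)+ RNA was made into direct RNA libraries (SQK-RNA002 kit). The submitters' processing notes name minimap2 and GRCm38. The sources used here give neither versions nor the treatment of reads matching more than 1 transcript. Transcripts were matched by identifier to GENCODE M21 (GRCm38) and summed to genes. Transcripts without a gene (0.0652% of cold reads, 0.0571% of control reads) stayed in the library size.

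Library sizes were scaled with edgeR 4.0.16 TMM factors in R 4.3.3 (1.06 for cold, 0.940 for control), giving effective sizes of 1293824 and 1595479 reads. Ratios carry 95% Clopper-Pearson intervals (Python 3.11.15, scipy 1.17.1), and log2 ratios a prior of 0.5 reads. Within-library ratios carry exact conditional intervals of a 2 by 2 table, and transcript shares exact binomial and Newcombe intervals. Reads of poly(A)+ RNA in 1 library per condition are no replicates, so no test was made. The scripts were tested on simulated data.

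Every gene of the rule with at least 1 read is named, and of the processing, receptor and other matrix lists the genes with the 2 highest and the 2 lowest ratios at 20 reads or more, with further ones, the regulator list's called genes included, chosen after their values were seen. Marker lists are given by their sums. One item of the rule is not reported here. The genes and lists were chosen with earlier results of these data known. A few symbols were matched through RefSeq synonyms. Of the 60 genes, 43 matched a RefSeq promoter window. Alternatives were DESeq2 1.42.0 size factors, total counts with and without mitochondrially encoded genes, other read minimums, priors and folds, single or coding transcripts, and the removal of named genes.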

Additional observations from a re-analysis of the deposited data

How the results depend on the processing

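The groups' directions rest on few reads apart from Col4a1 and Col4a2, and 1 library per condition leaves the spread between mice unknown. No paired analysis was possible because each condition has 1 library and the labels carry no replicate numbers, and leaving out a replicate was impossible for the same reason. Without Col4a1 and Col4a2, a choice made after seeing the data, the basement membrane sum turned to a ratio of 0.981 in place of 1.45, its ratio to fibrillar and type VI reads was 1.29 in place of 1.90, and 1 gene was called higher in place of 3. When 2-fold was needed, 1 gene was called higher. With a minimum of 100 summed reads, 0 of 7 genes were called lower, since all 3 lower ones have fewer reads, the basement membrane median turned to 0.64, and no type VI median could be formed. Scaled by total counts, the basement membrane sum stood at 1.64, and at 1.59 once mitochondrially encoded genes were left out of the totals. Those scalings moved the median of all genes by 0.18 and 0.13 (log2), and DESeq2 size factors by −0.03. With total counts, Hspg2 was also called higher, Lama4 was no longer called lower, Sparc turned from −0.04 to 0.14, and the fibrillar sum had an interval across 1 (0.943, from 0.787 to 1.13). Sparc was at 0.10 without mitochondrially encoded genes. With the most abundant transcript alone, Lamb3 fell out of the calls, Sparc stood at 0.00 and Col5a1 turned from 0.05 to −0.09. Col4a1, Col4a2, Col6a1 and Col6a2 kept their calls under DESeq2 size factors, both total counts, both transcript choices and both other priors.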
